A study of Homo sapiens with 6 samples.

Results

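The data describe 6 genes of the intestinal crypt and the Wnt pathway, LGR5, SP5, CD44, CCND1, DKK1 and TNIK, in Caco-2 cells that carried a hairpin against FAM46A. They were taken by symbol from 14884 genes measured, and each was read by 1 probe set. The 6 were chosen by their measured differences from scramble on these same arrays, so their values below are a description and carry no test. Caco-2 is a human colon carcinoma line whose cells take on features of small intestinal enterocytes after confluence, and a short hairpin RNA (shRNA) lowers a transcript through RNA interference. The 3 groups of 2 arrays were FAM46A-shRNA#2, FAM46A-shRNA#4 and scramble shRNA, whose hairpin is a non-targeting control. All 3 groups were infected with lentivirus below confluence and sampled 17 days later, so the controls carried virus and a hairpin too. FAM46A encodes a member of a family of nucleotidyltransferases, also called TENT5A, and its own level was not analysed here. The labels call the arrays of a group biological replicates of 1 cell line without saying what separates them, so every p-value below measures only the spread between these samples, which may be technical.

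Wnt ligands bind Frizzled receptors and LRP5 or LRP6, which stops the destruction complex from degrading beta-catenin, and beta-catenin then joins TCF/LEF factors on target genes. In the colon this signal is strongest at the crypt base, where it keeps stem cells dividing, and it fades as cells move up and become absorptive or secretory. Several targets feed back on the pathway, either as receptors that raise its signal or as inhibitors that lower it. Caco-2 cells carry a truncated APC, a scaffold of the destruction complex, so beta-catenin signalling is already active in the line.

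Values are on a log2 scale relative to the median of the 6 arrays for that probe set, so 0 is that median, and 1 unit is a 2-fold difference. They compare arrays for 1 gene and give no level of a gene, so neither the genes' order of abundance nor the line's defining markers could be read from them. A difference is given with its standard error (SE) from limma, a linear model with moderated variances fitted over all genes and all 6 arrays. Replicates of a group differed over all genes with an SD of 0.12 for shRNA#2, 0.128 for shRNA#4 and 0.134 for scramble.

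LGR5, SP5, CD44 and CCND1 lay higher on all 4 hairpin arrays than on both scramble arrays, at between 2.00-fold and 2.65-fold the scramble mean. Of all genes, 19.5% lay above scramble in this way. DKK1 and TNIK did not share that pattern, because the hairpins parted. DKK1 was above scramble with shRNA#4 and overlapped it with shRNA#2. TNIK was above scramble with shRNA#2 and below it with shRNA#4.

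**Figure D1:**
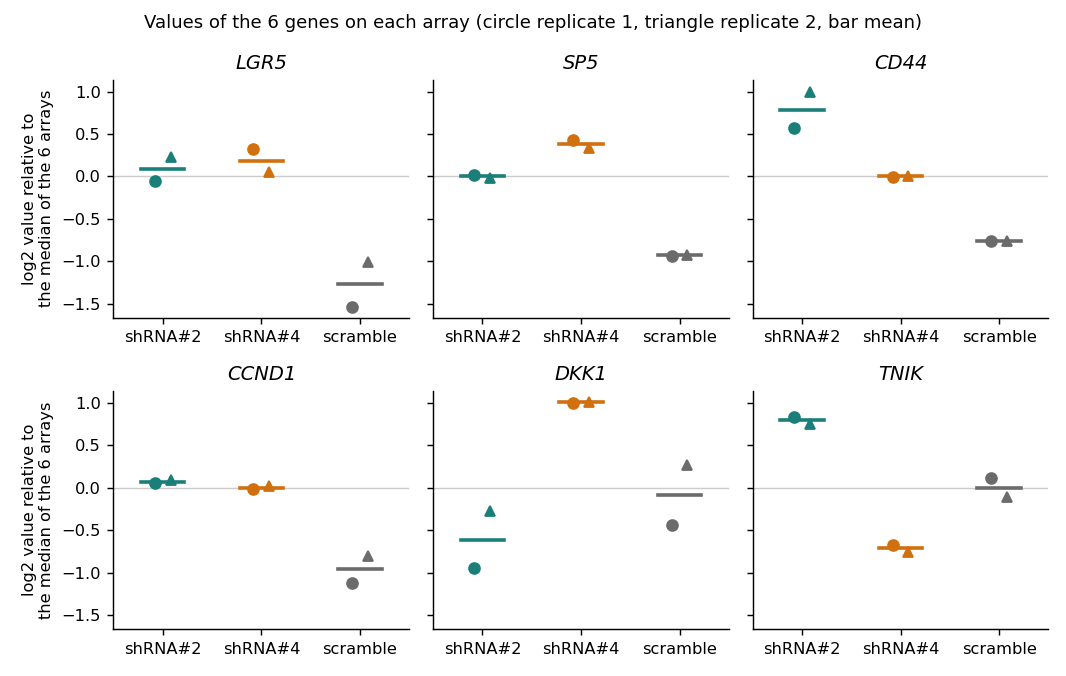
Log2 value of each of the 6 genes (vertical axis, relative to the median of the 6 arrays) on the 2 shRNA#2, 2 shRNA#4 and 2 scramble arrays, with circles for replicate 1, triangles for replicate 2 and a bar at the group mean. In LGR5, SP5, CD44 and CCND1 the 4 hairpin arrays sit above both scramble arrays, and in TNIK the hairpins sit on opposite sides of scramble.

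The promoters of the members show where the TCF/LEF factors that act with beta-catenin could be looked for in sequence. RefSeq windows of the 250 bases before the start site (GRCh38.p14) were matched for 4 of the 6, SP5, CD44, DKK1 and TNIK. They were searched on both strands for the TCF/LEF core CTTTGA and for its variant CTTTGT, whose matches do not overlap each other in these windows. A core on the opposite strand to the gene reads TCAAAG here. SP5 and DKK1 are printed as the windows that hold cores, and CD44 as a window without any, with every core in capitals.
SP5, chr2:170715087-170715336, plus strand: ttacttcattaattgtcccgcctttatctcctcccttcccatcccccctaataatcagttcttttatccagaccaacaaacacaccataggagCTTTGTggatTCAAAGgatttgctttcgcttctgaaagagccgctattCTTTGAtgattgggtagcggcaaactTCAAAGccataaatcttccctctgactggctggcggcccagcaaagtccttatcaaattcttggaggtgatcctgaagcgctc
DKK1, chr10:52314031-52314280, plus strand: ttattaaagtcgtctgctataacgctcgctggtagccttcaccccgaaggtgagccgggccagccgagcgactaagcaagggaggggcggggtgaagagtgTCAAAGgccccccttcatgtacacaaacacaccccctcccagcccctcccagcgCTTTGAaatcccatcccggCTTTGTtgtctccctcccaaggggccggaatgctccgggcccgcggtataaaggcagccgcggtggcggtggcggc
CD44, chr11:35138921-35139170, plus strand: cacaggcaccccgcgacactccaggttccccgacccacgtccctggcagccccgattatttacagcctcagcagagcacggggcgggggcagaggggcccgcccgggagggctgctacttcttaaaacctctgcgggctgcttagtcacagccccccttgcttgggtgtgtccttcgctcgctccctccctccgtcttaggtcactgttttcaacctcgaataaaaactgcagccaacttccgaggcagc

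The SP5 window held the core CTTTGA 3 times, 2 of them on the opposite strand, and the variant 1 time. Counted back from the start site, its cores began at bases -157, -147, -109 and -83. The DKK1 window held the core 2 times, 1 of them on the opposite strand, and the variant 1 time, beginning at bases -149, -95 and -76. The CD44 window and that of TNIK (chr3:171460409-171460658, minus strand) held 0 of either. Of 27305 genes with such a window, 11.4% held the core at least 1 time, 1.02% at least 2 times and 0.0696% (19 genes) at least 3 times, and 13.7% held the variant. GC content was 45.6% in the SP5 window, against 62.8% in that of DKK1, 62.4% in that of CD44, 67.6% in that of TNIK and a median of 58% over all windows. A match is a string of letters and not a measured binding site. The 2 genes with cores had different patterns, since SP5 was above scramble with both hairpins and DKK1 with shRNA#4 alone.

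**Figure D2:**
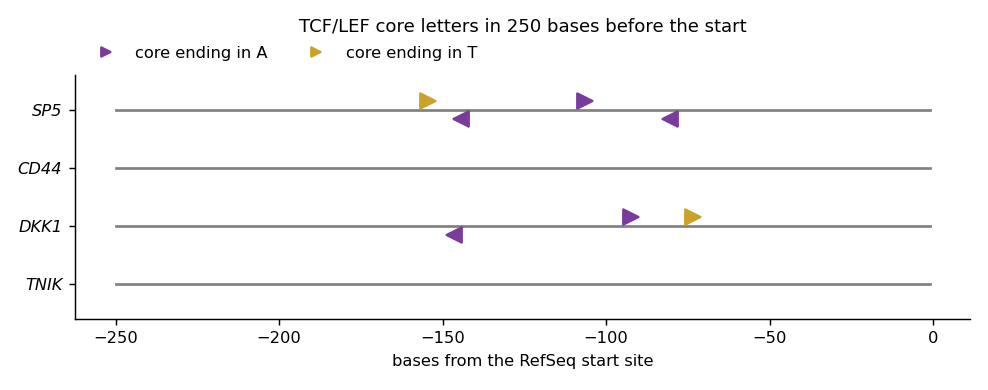
Position of the TCF/LEF core (horizontal axis, bases from the RefSeq start site) in the 250 bases before SP5, CD44, DKK1 and TNIK. Arrows above the line are on the gene's strand and arrows below on the other, with 4 cores in SP5, 3 in DKK1 and 0 in CD44 and TNIK.

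LGR5 is the R-spondin receptor that marks cycling stem cells at the crypt base. Its values were -0.051 and 0.23 on the shRNA#2 arrays and 0.32 and 0.051 on the shRNA#4 arrays, against -1.54 and -1.01 on the scramble arrays. Every hairpin array lay above both scramble arrays, and the hairpins overlapped each other. The difference was 1.36 ± 0.19 for shRNA#2 (2.57-fold) and 1.46 ± 0.19 for shRNA#4 (2.75-fold). The scramble replicates stood 0.53 apart, and the difference for the mean of both hairpins was 1.41 ± 0.17, with 1.14 without scramble replicate 1 and 1.67 without scramble replicate 2. It was the largest of the 6 with all arrays, but without scramble replicate 1 CD44 had 1.15, and quantile normalization gave 1.15 for LGR5 and 1.17 for CD44.

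SP5 is a zinc-finger transcription factor and a direct Wnt target that restrains other targets of the pathway. Its values were 0.018 and -0.018 on the shRNA#2 arrays and 0.42 and 0.34 on the shRNA#4 arrays, against -0.93 and -0.92 on the scramble arrays. The 3 groups did not overlap, and shRNA#4 was the highest. SP5 had the smallest SE of the 6, with differences from scramble of 0.93 ± 0.052 for shRNA#2 (1.90-fold) and 1.31 ± 0.052 for shRNA#4 (2.48-fold). The hairpins differed by -0.38 ± 0.052, shRNA#2 minus shRNA#4.

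CD44 is a receptor for hyaluronan at the cell surface and a Wnt target that crypt cells lose as they leave the base. Its values were 0.58 and 0.997 on the shRNA#2 arrays and -0.002 and 0.002 on the shRNA#4 arrays, against -0.76 and -0.76 on the scramble arrays. The 3 groups again did not overlap, and here shRNA#2 was the highest, although its replicates stood 0.42 apart. The difference from scramble was 1.55 ± 0.13 for shRNA#2 (2.92-fold) and 0.76 ± 0.13 for shRNA#4 (1.69-fold). The hairpins differed by 0.79 ± 0.13, the opposite sign to SP5.

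CCND1 encodes cyclin D1, which activates CDK4 and CDK6 and moves cells out of the G1 phase. Its values were 0.060 and 0.086 on the shRNA#2 arrays and -0.018 and 0.018 on the shRNA#4 arrays, against -1.12 and -0.80 on the scramble arrays. The hairpin arrays lay close together, above both scramble arrays. The difference was 1.03 ± 0.10 for shRNA#2 (2.05-fold) and 0.96 ± 0.10 for shRNA#4 (1.95-fold), and the hairpins differed by 0.073 ± 0.10.

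DKK1 encodes a secreted inhibitor that blocks LRP5 and LRP6 and is itself induced by Wnt signalling. Its values were -0.95 and -0.27 on the shRNA#2 arrays and 1.004 and 1.012 on the shRNA#4 arrays, against -0.43 and 0.27 on the scramble arrays. The shRNA#4 arrays lay above all the others, and shRNA#2 overlapped scramble. The difference was -0.53 ± 0.28 for shRNA#2 and 1.09 ± 0.28 for shRNA#4 (2.13-fold), with -1.62 ± 0.28 between the hairpins. Replicates stood 0.68 apart with shRNA#2 and 0.70 apart with scramble, but 0.008 apart with shRNA#4, so DKK1 was the most variable of the 6 genes. Its mean over both hairpins differed from scramble by 0.28 ± 0.25, which became -0.070 without scramble replicate 1 and 0.63 without scramble replicate 2. For shRNA#2 alone the difference ran from -0.88 without scramble replicate 1 to -0.17 without scramble replicate 2.

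TNIK encodes a kinase of the germinal center family that binds TCF4 (the factor encoded by TCF7L2) and phosphorylates it in Wnt-active colon cancer cells. Its values were 0.84 and 0.75 on the shRNA#2 arrays and -0.67 and -0.75 on the shRNA#4 arrays, against 0.11 and -0.11 on the scramble arrays. The hairpins thus lay on opposite sides of scramble, with replicates close together. The difference was 0.79 ± 0.085 for shRNA#2 (1.73-fold) and -0.71 ± 0.085 for shRNA#4 (1.64-fold lower), and the hairpins differed by 1.51 ± 0.085 (2.84-fold). The mean of both hairpins hid this, at 0.040 ± 0.074. Of all genes, 2.69% had shRNA#2 above and shRNA#4 below scramble, and 3.42% had the reverse.

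**Figure D3:**
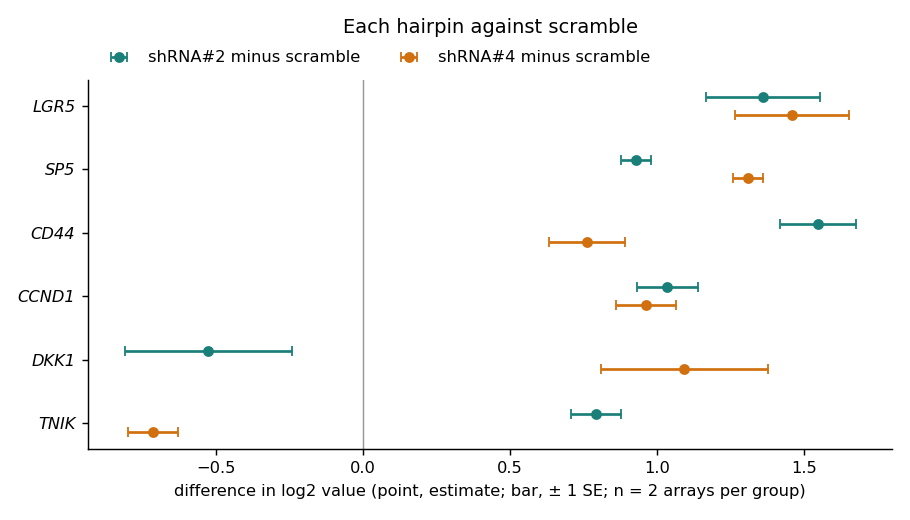
Difference of shRNA#2 and of shRNA#4 from scramble for the 6 genes (horizontal axis, log2, point at the estimate and bar of 1 SE on each side, 2 arrays per group). LGR5 and CCND1 have nearly the same difference with both hairpins, SP5 is higher with shRNA#4 and CD44 with shRNA#2. The estimates of DKK1 and TNIK change sign, although the DKK1 arrays with shRNA#2 overlapped scramble.

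By hairpin, 5 of the 6 genes lay above scramble with shRNA#2 (29.7% of all genes did) and DKK1 overlapped it. With shRNA#4, 5 lay above scramble (31.8% of all genes) and TNIK below (26.8%). Between the hairpins, the arrays of CD44, CCND1 and TNIK lay higher with shRNA#2 (24.6% of all genes), those of SP5 and DKK1 lower (29.9%), and LGR5 overlapped. For CCND1 the difference of 0.073 ± 0.10 was smaller than its SE. Both hairpin comparisons share the scramble arrays. Over the 6 arrays the profiles of SP5 and CCND1 were nearest to each other, with a root mean square difference of 0.22, followed by LGR5 and CCND1 at 0.24 and LGR5 and SP5 at 0.26. DKK1 and TNIK were farthest apart, at 1.33.

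Close relatives of the members were taken by family and tested in the fit over all genes. A gene was called at a Benjamini-Hochberg adjusted p under 0.05. With the mean of both hairpins set against scramble, 25.4% of all genes were called, 14.8% higher and 10.6% lower. LGR4, the R-spondin receptor with broader expression along the crypt, had values of -0.049 and 0.049 with shRNA#2 and -0.57 and -0.62 with shRNA#4, against 0.076 and 0.070 with scramble. Over both hairpins it fell by 0.37 ± 0.047 (limma, adjusted p = 0.00284). It fell with shRNA#4 by 0.67 ± 0.055 (adjusted p = 0.000712), while shRNA#2 differed from scramble by -0.073 (adjusted p = 0.45) and the hairpins differed by 0.60 (adjusted p = 0.00286). All 4 hairpin arrays lay below both scramble arrays for LGR4 and above them for LGR5. LGR6, the other relative, differed by -0.072 ± 0.060 for the mean of both hairpins and was not called.

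CCND2, which encodes cyclin D2, rose by 0.65 ± 0.081 for the mean of both hairpins (limma, adjusted p = 0.00257). Its values were 0.61 and 0.36 with shRNA#2 and 0.002 and -0.002 with shRNA#4, against -0.34 and -0.47 with scramble. They average 2 probe sets with differences of 1.08 and 0.22. CCND3, which encodes cyclin D3, had values of -0.29 and -0.28 with shRNA#2 and 0.18 and 0.19 with shRNA#4, against -0.028 and 0.028 with scramble. The hairpins differed by -0.47 ± 0.048 (adjusted p = 0.00338). The fall with shRNA#2, by 0.28, had an adjusted p of 0.00939, and up to 0.0605 without an shRNA#2 replicate. The rise with shRNA#4, by 0.19, had an adjusted p of 0.0331, and up to 0.144 with any of the 6 arrays left out.

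Among the SP factors, SP4 and SP6 were called and SP1, SP2, SP3, SP7, SP8 and SP9 were not. SP4, a relative of SP1 that binds GC boxes, rose with shRNA#2 by 0.55 ± 0.061 (limma, adjusted p = 0.0025), against 0.089 with shRNA#4, and the hairpins differed by 0.46 (adjusted p = 0.00683). SP6, known for its role in tooth and skin development, fell by 0.38 ± 0.048 for the mean of both hairpins (adjusted p = 0.00276). SP5 lay on the other side of scramble from SP6.

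Of the DKK1 relatives, DKK4, also an inhibitor of LRP receptors, fell by 0.47 ± 0.094 for the mean of both hairpins (limma, adjusted p = 0.0138, and 0.0822 without scramble replicate 2). Its values were -0.24 and 0.041 with shRNA#2 and -0.041 and -0.097 with shRNA#4, against 0.29 and 0.49 with scramble. DKK2 differed by -0.004 and DKK3 by 0.18, and neither was called.

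The kinases nearest to TNIK are MAP4K4 and MINK1. MAP4K4 rose by 0.84 ± 0.11 for the mean of both hairpins (limma, adjusted p = 0.00257), with values of -0.097 and 0.12 with shRNA#2 and 0.35 and 0.097 with shRNA#4, against -0.83 and -0.62 with scramble. Unlike TNIK, it lay above scramble with both hairpins. The MAP4K4 rise with shRNA#2 had an adjusted p of 0.00874, and 0.0501 without shRNA#2 replicate 2. MINK1 differed by -0.21 ± 0.072 (adjusted p = 0.0868).

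The pathway around the 6 genes was read from 10 lists with 207 genes, of which 136 were measured. For the mean of both hairpins 37 were higher and 8 lower, 33.1% in all beside 25.4% of all genes. Their median difference was 0.018, beside 0.003 over all genes. Counts below with an array left out stand without the all-gene count of the same fit. With shRNA#2, 30 were higher and 11 lower, which is 30.1% beside 21.6% of all genes (12.1% higher and 9.54% lower). The shRNA#2 total of 41 dropped to 27 without scramble replicate 1, to 21 without shRNA#2 replicate 1 and to 19 without shRNA#2 replicate 2. With shRNA#4, 35 were higher and 9 lower, which is 32.4% beside 26.1% of all genes (15.7% higher and 10.4% lower), and the total of 44 dropped to 28 without shRNA#4 replicate 1. Between the hairpins 16 were higher with shRNA#2 and 20 lower, which is 26.5% beside 15.3% of all genes, and the total of 36 dropped to between 12 and 23 without 1 of the hairpin arrays.

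The Wnt feedback and target list, leaving out the 6, had 24 of 30 genes measured. For the mean of both hairpins 11 were higher and 0 lower, with a median difference of 0.22. Quantile normalization gave 10 higher and an adjusted p under 0.01 gave 7, with 0 lower in both. Fewer were higher with any array but shRNA#4 replicate 1 left out, and without scramble replicate 2 not all calls were higher. EDN1, the vasoconstrictor peptide endothelin-1, rose by 1.10 ± 0.11 (limma, adjusted p = 0.00128). TCF4, a basic helix-loop-helix factor distinct from the protein of that name that TNIK binds, rose by 0.87 ± 0.090 (adjusted p = 0.00141). SOX4, a transcription factor of progenitor cells, rose by 0.82 ± 0.13 (adjusted p = 0.00517). AXIN2, the negative feedback scaffold of the destruction complex and a standard readout of beta-catenin, rose by 0.74 ± 0.14 (adjusted p = 0.0129). The rise was 1.05 ± 0.17 with shRNA#4 (adjusted p = 0.00615), and shRNA#2 differed by 0.43 (adjusted p = 0.132). Between the hairpins the AXIN2 difference was -0.62 ± 0.17 and was not called (adjusted p = 0.0583). It ran from -0.51 without shRNA#2 replicate 1 to -0.72 without shRNA#2 replicate 2. The scramble replicates stood 0.51 apart, so the shRNA#2 difference of AXIN2 was 0.17 without scramble replicate 1 (adjusted p = 0.388) and 0.68 without scramble replicate 2 (adjusted p = 0.0161).

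The counts of targets differed by hairpin. With shRNA#4 14 of the 24 were higher and 0 lower, with a median difference of 0.33. With shRNA#2 6 were higher and 0 lower, with a median of 0.069. Quantile normalization gave 12 higher with shRNA#4 and 5 with shRNA#2, and an adjusted p under 0.01 gave 10 and 5. The shRNA#4 count was smaller without a scramble or an shRNA#4 replicate. For shRNA#2 not all calls were higher without scramble replicate 2 or shRNA#2 replicate 1. Tested between the hairpins, 8 were lower with shRNA#2 and 0 higher, beside 8.63% and 6.64% of all genes, and the 8 became 4 without shRNA#2 replicate 1 and 5 without either shRNA#4 replicate. EDN1 had values of -0.098 and 0.098 with shRNA#2 and 1.495 and 1.523 with shRNA#4, against -0.53 and -0.16 with scramble. It rose by 1.85 ± 0.13 with shRNA#4 (limma, adjusted p = 0.000454), while shRNA#2 differed by 0.34 (adjusted p = 0.115) and the hairpins by -1.51 (adjusted p = 0.00264). The shRNA#2 difference of EDN1 was 0.53 without scramble replicate 2 (adjusted p = 0.0238). JUN, a subunit of the AP-1 factor, rose by 0.76 ± 0.099 with shRNA#4 (adjusted p = 0.00312), differed by -0.091 with shRNA#2, and differed by -0.85 between the hairpins (adjusted p = 0.00508). JUN's call for the mean of both hairpins, 0.33 with an adjusted p of 0.0349, reached 0.175 with an array left out. Among the members, DKK1 and SP5 were higher with shRNA#4 than with shRNA#2, and CD44 and TNIK were lower. CCND1 differed by less than its SE, and LGR5 overlapped.

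**Figure D4:**
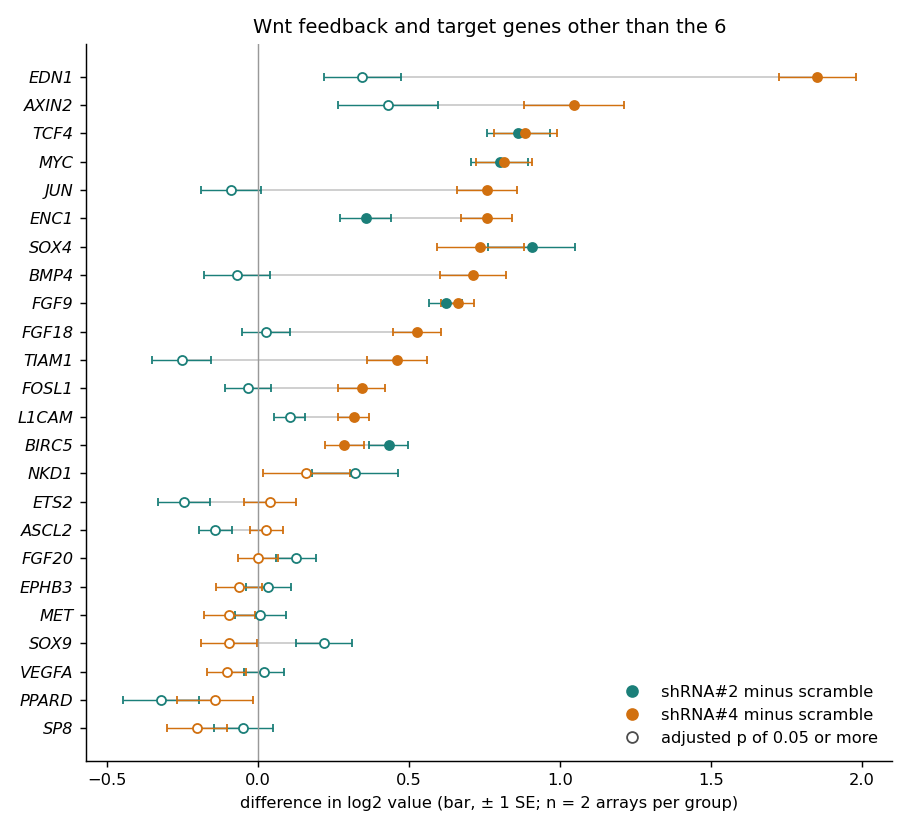
Difference of shRNA#2 and of shRNA#4 from scramble (horizontal axis, log2, with bars of 1 SE on each side, 2 arrays per group) for the 24 measured Wnt feedback and target genes other than the 6. Filled points had an adjusted p under 0.05, which 6 genes reached with shRNA#2 and 14 with shRNA#4.

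At the membrane, 24 of 24 genes of the Wnt receptors and the R-spondin branch were measured, 5 higher and 4 lower for the mean of both hairpins, or 6 and 2 without scramble replicate 2. ZNRF3, an E3 ligase that removes Frizzled receptors and is the partner of R-spondin and LGR5, rose by 0.77 ± 0.053 (limma, adjusted p = 0.000474). It had values of -0.022 and 0.022 with shRNA#2 and 0.56 and 0.59 with shRNA#4, against -0.55 and -0.41 with scramble, and the hairpins differed by -0.57 (adjusted p = 0.00384). This order, shRNA#4 above shRNA#2 above scramble, is that of SP5. FZD2, a Frizzled receptor, rose by 0.70 ± 0.078 (adjusted p = 0.00177). FZD6, another, rose by 0.51 ± 0.088 (adjusted p = 0.00794, and 0.0528 without scramble replicate 2). Of the ligand list 2 of 21 genes were measured, and WLS, which carries Wnt proteins to the cell surface, rose by 0.38 ± 0.070 (adjusted p = 0.0107, and 0.0661 without scramble replicate 2).

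Of 18 measured secreted and membrane inhibitors 1 was higher and 2 were lower for the mean of both hairpins. That is 16.7% called, beside 25.4% of all genes. SOSTDC1, an antagonist of BMP and Wnt signals, rose by 0.68 ± 0.080 (limma, adjusted p = 0.00217). SFRP5, a decoy for Wnt ligands, fell by 0.49 ± 0.077 (adjusted p = 0.006). The other gene was DKK4, above.

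Inside the cell, 5 of 11 measured genes of signal transduction and the destruction complex were higher and 0 lower. GSK3B, the kinase that marks beta-catenin for degradation, rose by 0.39 ± 0.076 (limma, adjusted p = 0.0124, and 0.0542 without scramble replicate 1). AMER1, which brings APC to the membrane, rose by 0.27 ± 0.070 (adjusted p = 0.0362) and had an adjusted p of up to 0.194 when a scramble or shRNA#2 replicate was left out. BTRC, the F-box protein that recognises phosphorylated beta-catenin, rose by 0.24 ± 0.053 (adjusted p = 0.02, and up to 0.115 without scramble replicate 2, shRNA#2 replicate 1 or shRNA#4 replicate 1). Of 11 measured nuclear cofactors 3 were higher and 0 lower, which is 27.3% called beside 25.4% of all genes (14.8% higher and 10.6% lower). LEF1, a DNA-binding partner of beta-catenin, rose by 0.42 ± 0.066 (adjusted p = 0.00578), and CHD8, a chromatin remodeller that binds beta-catenin, rose by 0.32 ± 0.045 (adjusted p = 0.00401). PYGO1, which links BCL9 to chromatin, rose by 0.20 ± 0.049 (adjusted p = 0.0324, and up to 0.154 without either scramble replicate, shRNA#2 replicate 1 or shRNA#4 replicate 1).

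Around LGR5, 10 other crypt stem cell genes were measured. Of these, 1 was higher and 0 were lower for the mean of both hairpins, which is 10% called beside 25.4% of all genes. The list's median difference was 0.018. The called gene was CDCA7, a regulator of DNA methylation and a Wnt-responsive gene, with a rise of 0.92 ± 0.064 (limma, adjusted p = 0.000485) that was 0.93 with shRNA#2 and 0.92 with shRNA#4. With shRNA#2 the list had 3 higher and 1 lower, and with shRNA#4 1 higher and 1 lower.

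Around CCND1, 5 of 11 measured cyclin D partners and inhibitors were higher and 0 lower for the mean of both hairpins. These 5 became 3 without scramble replicate 1 or shRNA#2 replicate 2 and 2 without scramble replicate 2. CDK4, the kinase that cyclin D1 activates, rose by 0.43 ± 0.10 (limma, adjusted p = 0.0252, and up to 0.0951 without scramble replicate 1, shRNA#2 replicate 2 or either shRNA#4 replicate). RBL1, a relative of the retinoblastoma protein, rose by 0.58 ± 0.14 (adjusted p = 0.0275, and up to 0.121 without either scramble replicate or shRNA#2 replicate 1).

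Around CD44, 3 of 17 measured ligands, linkers and splicing factors were higher and 2 lower, which is 29.4% called beside 25.4% of all genes. VCAN, the matrix proteoglycan versican that binds hyaluronan, rose by 0.79 ± 0.065 (limma, adjusted p = 0.000722), more with shRNA#2 than with shRNA#4 by 0.81 (adjusted p = 0.00286). Its 2 probe sets disagreed, with differences of 1.55 and 0.034 for the mean of both hairpins. ESRP2, a splicing factor of epithelial CD44 isoforms, fell by 0.33 ± 0.073 (adjusted p = 0.0213, and up to 0.126 without either scramble replicate or shRNA#2 replicate 1). MMP14, a protease that sheds CD44, fell by 0.35 ± 0.10 (adjusted p = 0.0485, and up to 0.153 with any array but scramble replicate 2 left out). Isoforms of CD44 were not told apart by its single probe set.

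Around TNIK, 2 of 8 measured kinases and RAP2 partners were higher and 0 lower for the mean of both hairpins. That is 25% called, beside 25.4% of all genes (14.8% higher and 10.6% lower). Beside MAP4K4 the called gene was MAP4K5, a further kinase of the family, with a rise of 0.61 ± 0.075 (limma, adjusted p = 0.00252).

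**Figure D5:**
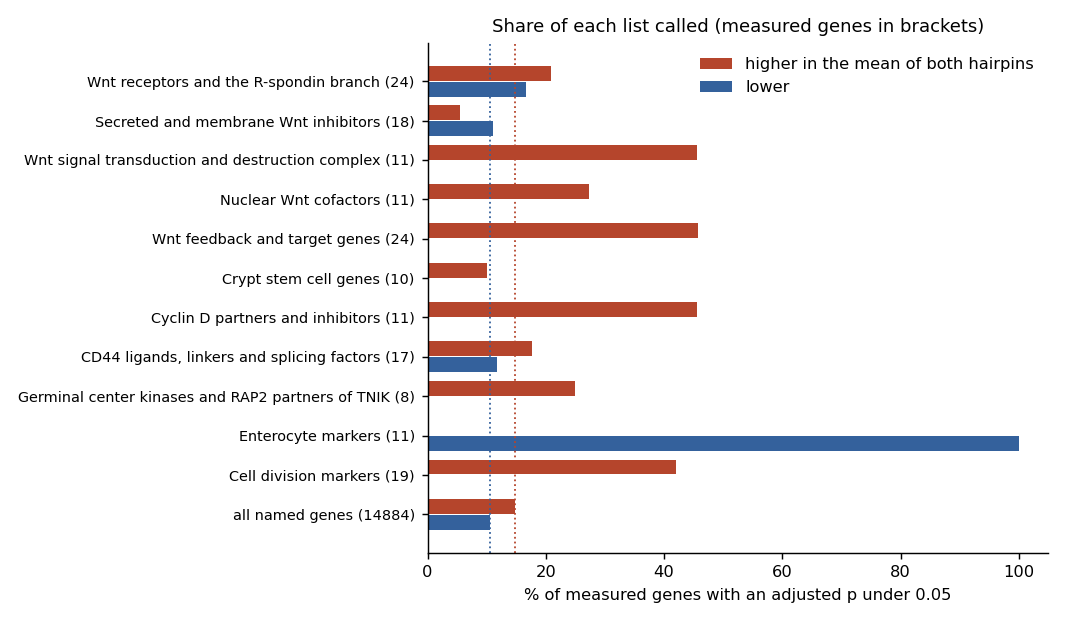
Share of the measured genes of each list (horizontal axis, percent) called higher (red) or lower (blue) when the mean of both hairpins was set against scramble at an adjusted p under 0.05, with dotted lines at the shares over all 14884 genes, 14.8% higher and 10.6% lower. Lists with under 8 measured genes and the list of secretory cell markers are not drawn, and enterocyte markers are all lower.

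The 6 genes were also set beside the 3 protein-coding genes whose profiles over the 6 arrays were nearest, of 11916 compared, by the root mean square of the difference between the arrays' values. Nearest to LGR5 were NRCAM, a cell adhesion molecule (0.13), PSAT1, an enzyme of serine synthesis (0.15), and ASNS, asparagine synthetase (0.16). Nearest to SP5 were SCML2, a Polycomb protein (0.080), MCM10, a DNA replication factor (0.098), and RAI14, an actin-binding protein (0.10). Nearest to CD44 were GXYLT2, a xylosyltransferase (0.15), GRB14, an adaptor of the insulin receptor (0.15), and SPRY2, an inhibitor of receptor tyrosine kinase signalling (0.17). CCND1 had the closest neighbours of all, MAP3K21, a mixed-lineage kinase (0.018), MTHFD1L, a mitochondrial folate enzyme (0.031), and POLR3G, a subunit of RNA polymerase III (0.056). For DKK1 they were HMOX1, heme oxygenase 1 (0.22), TAGLN, an actin-binding protein (0.27), and ORM2, a plasma protein (0.29). For TNIK they were CP, the copper protein ceruloplasmin (0.14), GALNT3, which starts mucin-type O-glycosylation (0.20), and MMP1, a collagenase (0.21). The 3 neighbours of TNIK split by hairpin as TNIK did, which follows from picking them by likeness on these same arrays. Their differences from scramble were 0.50, 0.55 and 0.56 for shRNA#2 and -0.71, -1.15 and -0.99 for shRNA#4, in the same order.

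Markers of differentiated and of dividing cells were read on the same arrays. For the mean of both hairpins 14.8% of all genes were called higher and 10.6% lower. Of 11 measured enterocyte markers 0 were higher and 11 lower for the mean of both hairpins, with a median difference of -1.23. Their mean value per array was -0.18 and -0.19 with shRNA#2 and -0.067 and -0.089 with shRNA#4, against 1.19 and 1.09 with scramble. Of 19 measured cell division markers 8 were higher and 0 lower for the mean of both hairpins. With shRNA#2 10 were higher and 1 lower, beside 12.1% and 9.54% of all genes. With shRNA#4 7 were higher and 0 lower, beside 15.7% and 10.4%. Their mean per array was 0.090 and 0.056 with shRNA#2 and 0.091 and 0.080 with shRNA#4, against -0.29 and -0.14 with scramble. LGR5, SP5, CD44 and CCND1 parted the same samples, but they were chosen by those differences. Of all genes, 19.5% lay above scramble on all 4 hairpin arrays. Of 9 measured goblet, Paneth and enteroendocrine markers 0 were higher and 2 lower, which is 22.2% called beside 25.4% of all genes. Of 4 measured mesenchymal markers 2 were higher and 0 lower. Their mean per array was -0.057 and 0.044 with shRNA#2 and 0.30 and 0.34 with shRNA#4, against -0.11 and -0.041 with scramble. The mean was highest with shRNA#4, as DKK1 was, but TAGLN is 1 of the 4 and was picked above for its likeness to DKK1. TAGLN alone had 1.11 and 1.12 on the shRNA#4 arrays. The part of these markers in the results was not tested, and in RNA of a whole culture fewer cells of a type and less RNA per cell cannot be told apart.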

How the data were processed

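Total RNA of 6 Caco-2 samples was labelled from 100 ng with the GeneChip WT PLUS kit and hybridised to Affymetrix arrays, 1 per sample, per the labels' protocols. The deposited values are on a log scale, taken here as log2, and were made by the authors. The values themselves show that each of 48144 probe sets was centred on its own median, since all medians lay within 1e-06 of 0. The range was -2.65 to 3.53 with 0 missing. No source used here states the log base, the summarisation, the background correction or the normalization. Centring removes each gene's level, so no probe set could be ranked by brightness and no filter on dim probe sets could be run. The number of arrays limits the precision, with a median SE of 0.0569 for the mean of both hairpins and 0.0657 for the other comparisons.

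Of the probe sets 16098 had 1 gene symbol in the platform annotation, 0 had several and 32046 had none, giving 14884 genes, and 779 genes with several probe sets were averaged. Groups follow the sample titles. limma 3.58.1 (R 4.3.3) fitted all 6 arrays and 3 groups, with eBayes and no variance trend. Residual degrees of freedom were 3 and prior ones 3.09. P-values were adjusted by Benjamini-Hochberg across the 14884 genes. A variance trend was run as an alternative on the mean of the centred values, which holds no signal level, so no trend on signal could be run. The fit was tested on simulated data. Comparisons were each hairpin against scramble, the mean of both against scramble, and shRNA#2 against shRNA#4.

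The members and all gene lists were chosen with earlier results of these data known. Named genes were the members, their close relatives, up to 3 called genes of each pathway list with the largest difference for the mean of both hairpins, the 3 largest called differences over all lists in each other comparison, and the 3 nearest profiles of each member. Tables and plots used Python 3.11.15, pandas 2.3.3 and matplotlib 3.10.9. Alternatives were quantile normalization, centring of arrays, array weights, a robust prior, a variance trend, all probe sets, protein-coding genes only, only the arrays compared, a replicate block, a stricter threshold of 0.01 and each array left out.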

Additional observations from a re-analysis of the deposited data

Results flagged for a closer look

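With shRNA#2 and shRNA#4 on opposite sides of both scramble arrays, TNIK had a difference of 1.51, shRNA#2 minus shRNA#4, and this difference was not tested because TNIK was chosen for its values. Among the 136 measured pathway genes 8 (5.88%) were split in the same way, beside 6.11% of all genes. The stem cell gene MSI1, an RNA-binding protein, was higher with shRNA#2 by 0.58 (limma, adjusted p = 0.00306). NCK1, an adaptor that binds TNIK, was higher by 0.28 (adjusted p = 0.0463, and up to 0.197 with any array left out), and FRAT2, an inhibitor of GSK3, by 0.35 without being called (adjusted p = 0.0986). The reverse split was seen in TIAM1, an exchange factor for RAC1, at -0.71 (adjusted p = 0.00775), and in RB1, the retinoblastoma protein, at -0.66 (adjusted p = 0.00688). It was also seen in PYGO2, a nuclear partner of BCL9, at -0.54 (adjusted p = 0.0165, and up to 0.0806 without shRNA#2 replicate 1 or shRNA#4 replicate 2), in LRIG1, a stem cell marker that restrains EGF receptors, at -0.51 (adjusted p = 0.0121, and up to 0.0771 without an shRNA#2 replicate), and in cyclin D3, CCND3, at -0.47 (adjusted p = 0.00338). With 2 arrays per group, no array could be tested as an outlier.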

How the results depend on the processing

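All values are differences in centred log2 values, so a change in dim probe sets could not be told from a change in bright ones. Between the hairpins, quantile normalization moved TNIK from 1.51 to 1.96, CD44 from 0.79 to 1.115 and DKK1 from -1.62 to -1.86. It moved SP5 from -0.38 to -0.36, CCND1 from 0.073 to 0.096 and LGR5 from -0.099 to -0.056. For the mean of both hairpins it gave 1.15 for LGR5, 0.93 for SP5, 1.17 for CD44, 0.82 for CCND1, 0.26 for DKK1 and 0.19 for TNIK. With each array left out in turn, the same difference ran from 1.14 to 1.67 for LGR5, 1.10 to 1.14 for SP5, 1.05 to 1.26 for CD44, 0.84 to 1.16 for CCND1, -0.070 to 0.63 for DKK1 and -0.072 to 0.15 for TNIK, the last 2 with a change of sign. Calls over all genes moved with the setting too. For the mean of both hairpins they were 2206 higher and 1578 lower, and 1821 and 1525 with quantile normalization. The pathway counts that follow stand without the all-gene count of each setting, so their drops are not particular to the lists. At an adjusted p under 0.01 the pathway genes called numbered 22 for the mean of both hairpins, 19 for shRNA#2, 23 for shRNA#4 and 12 between the hairpins. With each array left out the counts ran from 31 to 41, 19 to 36, 28 to 39 and 12 to 37 in that order. The count of 36 between the hairpins was 12 without shRNA#2 replicate 1, 18 without shRNA#2 replicate 2, 23 without shRNA#4 replicate 1 and 17 without shRNA#4 replicate 2. In each of these fits 1 hairpin group was left with 1 array, and the cause of the drop was not tested. With the replicate block the counts were 53, 51, 55 and 45 in the same order. Members' differences could not move with it, because each group has 1 array of each replicate number. Deviations of same-numbered arrays correlated at 0.179 (scramble and shRNA#2), 0.119 (scramble and shRNA#4) and 0.199 (both hairpins) over all genes, a hint from the data and not the design. Of the 41 named genes, 30 were called for the mean of both hairpins and 18 of them kept the call without each array in turn. For shRNA#2 this was 13 of 23, for shRNA#4 13 of 25 and between the hairpins 7 of 16, and 4, 6 and 3 further genes gained a call without some array. The 41 hold the close relatives and the genes named from the lists, without the members and the nearest profiles. Those from the lists were named because they were called. The counts of calls therefore follow in part from the naming and cannot be read against the 25.4% of all genes. A filter on dim probe sets was not run, and neither was a choice among probe sets for the members, which have 1 each.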

Other observations

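A few pathway genes outside the naming rule were picked after their values were seen. RNF43, the E3 ligase that acts with ZNRF3 on Frizzled receptors, rose with shRNA#4 by 0.58 ± 0.089 (limma, adjusted p = 0.00544) and differed by 0.26 with shRNA#2 (adjusted p = 0.0998). BMP4, a ligand of differentiation signals and a Wnt target in colon cancer cells, rose with shRNA#4 by 0.71 ± 0.11 (adjusted p = 0.00555), differed by -0.070 with shRNA#2, and differed by -0.78 between the hairpins (adjusted p = 0.00815). FGF9, a growth factor, rose by 0.62 ± 0.055 with shRNA#2 (adjusted p = 0.00132) and by 0.66 ± 0.055 with shRNA#4 (adjusted p = 0.000735). ESRP1, a regulator of CD44 splicing in epithelia, rose with shRNA#2 by 0.56 ± 0.070 (adjusted p = 0.00351) and differed by -0.090 with shRNA#4, and the hairpins differed by 0.65 (adjusted p = 0.00397).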
